A study of Schizosaccharomyces pombe with 5 samples.

Results

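Kinetochore and spindle genes of fission yeast (Schizosaccharomyces pombe) were followed from the nitrogen-starved resting state, G0, back to growth. The set was taken by name: a gene belonged to it if its symbol on the array was mis, nuf, ndc, spc, dam, dad, duo, ask, cnp, sim or klp followed by a number. That gave 37 genes of the 4797 named genes with a value. All 37 match a gene of the RefSeq table for this species under the same symbol, and each had 1 spot on the array. The same name pattern also takes in dad3, dad4, spc1 and spc19, which have no named spot and were not analysed here. By role, 8 of the 37 belong to the outer kinetochore, 7 to the DASH complex, 12 to the inner kinetochore and the loading of its histone, and 6 are kinesin motors. The remaining 4 act elsewhere: mis3 in ribosome assembly, mis4 in loading cohesin onto chromosomes, and spc2 and spc3 in the signal peptidase of the endoplasmic reticulum. The set is therefore not purely one of kinetochore and spindle genes.

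The kinetochore is the protein assembly that joins a chromosome to spindle microtubules. Its inner part sits on centromeric nucleosomes that hold the histone variant CENP-A (Cnp1), and its outer part, built on the Ndc80 and Mis12 complexes and Spc7, holds the microtubule. In yeasts the DASH complex couples the outer kinetochore to moving microtubule ends, and kinesins slide, shorten or cross-link the microtubules themselves.

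All cells were of strain L972. The G0 cells, present on every array in the Cy3 channel, had been kept for 48 h in the minimal medium EMM2 without a nitrogen source at 26 °C. The Cy5 channel held cells taken 1, 2, 3.5 or 6 h after 4 volumes of fresh EMM2 were added to such a G0 culture, or cells in logarithmic (vegetative) growth in EMM2 at 26 °C that had not been starved. Fresh medium and nitrogen came together, so their effects cannot be told apart. No array had the dyes the other way round. A dye effect on a gene was thus not tested, and it cannot be told apart from a difference from G0. A ratio that is alike on every array does not separate them, since all arrays share the dye order and the G0 state. Each condition had a single array; per the submitters, no repeats were made. For the 3.5 h, 6 h and vegetative samples a description field says 2 h, which their titles and protocols contradict; groups here come from the titles.

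Values are log ratios of growing cells over G0 cells, read here as log2, so 1 is 2-fold higher than G0 and -1 is 2-fold lower. Which base the logarithm has is not stated in the labels or the table. No value has a replicate check. The only error in the data is that between spots of a gene repeated 15 or 16 times on an array, with a pooled SD of 0.18 to 0.25 for cdc2, nda3 and nuc1 and of 0.38 to 0.47 for 12 unnamed repeated positions. A difference of 1 is larger than either SD. RNA of whole cultures was compared, so fewer cells in mitosis and less RNA per cell cannot be told apart. The starvation and mating genes isp5, isp6, mei2, ste11 and mam2 were below G0 on all 5 arrays, between -5.75 and -0.51. The G1/S genes cdc18, cdc22 and cig2 lay between -0.68 and 0.24 at 1 and 2 h and between 1.20 and 3.31 at 3.5 and 6 h. The mitotic gene slp1 stood at 1.16, 1.93, 1.42, 0.87 and 2.70 from 1 h to vegetative cells. The mitotic genes plo1 and ark1 lay between -0.71 and 0.73 on all arrays. Septation genes differed at 1 h, with agn1 at 2.15, eng1 at 0.87 and adg1 at -0.27. They lay between -0.82 and 0.18 at 6 h and between 2.82 and 4.80 in vegetative cells.

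The set did not move as a block. In array order its median log2 ratio was 0.21, 0.15, 0.40, 0.20 and 0.19, against 0.06, 0.00, 0.14, 0.04 and 0.09 over all named genes. At 1 h, 5 of 37 genes were at least 2-fold higher (23.4% of all genes were) and 8 were at least 2-fold lower (22.6% of all genes). At 2 h, 7 were higher (22.8% of all genes) and 6 lower (21.3%). The 3.5 h array had 3 of 35 higher (18.9%) and 3 lower (16.7%). The 6 h array had 4 of 37 higher (15.6%) and 3 lower (14.9%). In vegetative cells 6 were higher (15.8%) and 4 lower (14.6%). In the deposited values, at the 2-fold limit, each share of the set was below that of all genes, except that of higher genes in vegetative cells (16.2% against 15.8%). At a 1.5-fold limit, or with another log base, this did not hold for lower genes at 6 h and in vegetative cells. It then did not hold for higher genes at 2 h either, nor, read as log10, for those at 3.5 h. Read as natural logarithms, higher genes at 1 h were 29.7% of the set and of all genes.

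Centring or scaling moved the split between higher and lower genes of the set and, in 3 of the settings given here, put its share of lower genes above that of all genes: scaled at 6 h, and scaled or centred in vegetative cells. With the arrays scaled to a common spread, 5 were above and 5 below the limits at 1 h (19.8% and 18.0% of all genes). At 6 h scaling put 4 above and 9 below (10.8% and 24.3% of the set, 19.7% and 17.9% of all genes), and in vegetative cells 7 and 9 (18.9% and 24.3% of the set, 19.5% and 17.6% of all genes). With each array centred on its median these were 3 and 5 for the 3.5 h array (15.9% and 19.7% of all genes) and 4 and 5 for the 6 h array (15% and 15.5%). In vegetative cells centring put 6 above and 7 below (16.2% and 18.9% of the set, 13.8% and 16.3% of all genes). With each block of spots centred they were 3 and 5 at 3.5 h (14.8% and 20.8% of all genes), 3 and 5 at 6 h (14.6% and 15.7%), and 3 and 4 in vegetative cells (12.8% and 16.9%).

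**Figure D1:**
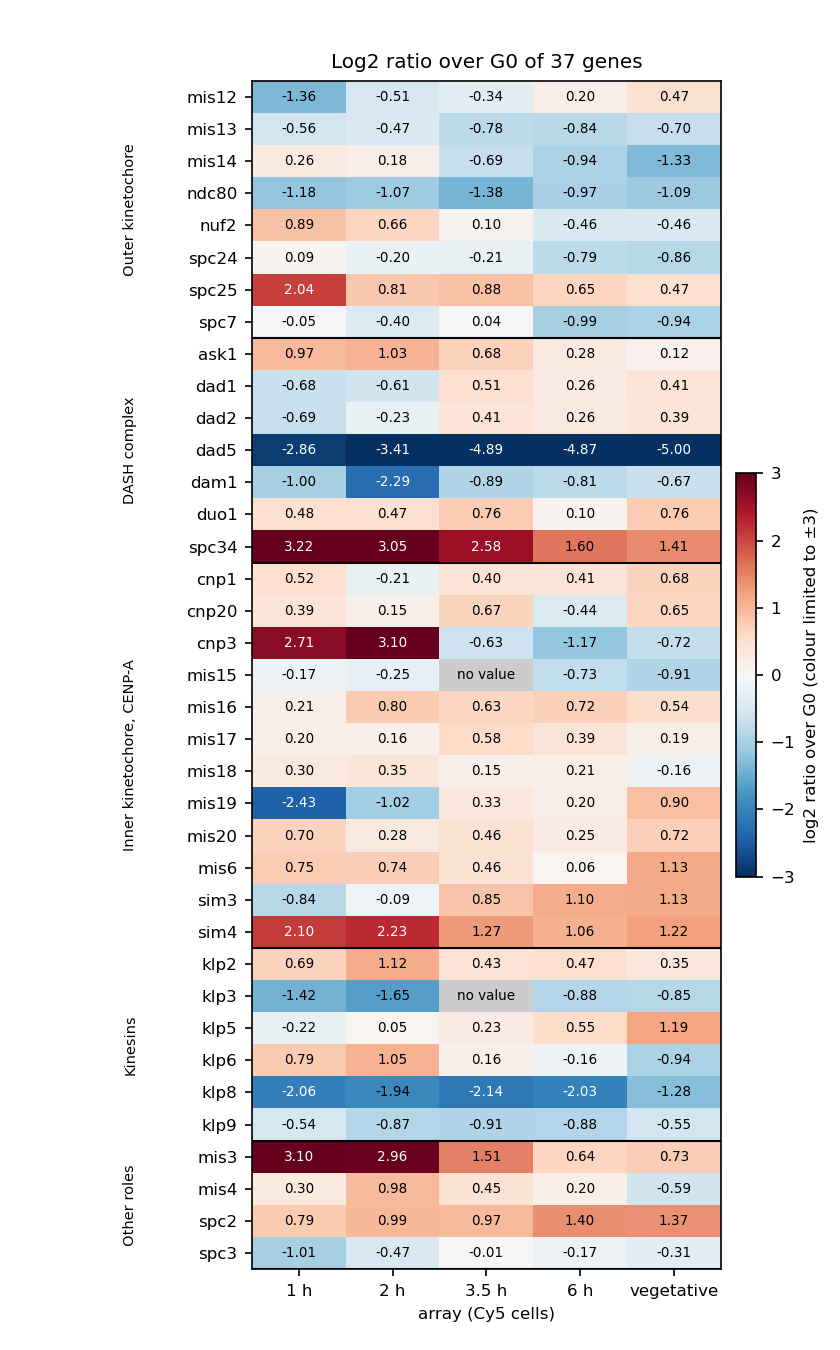
Log2 ratio of growing cells over G0 cells for the 37 genes (rows, grouped by role) on the 5 arrays (columns, 1 array each), with the value printed in each cell; colour is limited to ±3 and grey marks a missing value. Only dad5 and klp8 are at least 2-fold lower, and only spc34 and sim4 at least 2-fold higher, on all 5 arrays. Of all 4708 genes with no missing value, 287 are so lower and 365 so higher.

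Of the 35 genes with no missing value, 20 passed the 2-fold limit on 1 array or more (57.1%, against 66.7% of all genes). Only dad5 and klp8 were 2-fold lower on all 5 arrays, and only spc34 and sim4 were 2-fold higher on all 5. Of all 4708 genes with no missing value, 287 were 2-fold lower and 365 were 2-fold higher on all 5. The other 15 stayed within 2-fold of G0 throughout. They include the CENP-A gene cnp1, the DASH genes dad1, dad2 and duo1, the motor gene klp9, and nuf2, spc24 and spc7 of the outer kinetochore. The highest value of a gene fell on the vegetative array for 10 of the 35 (28.6%, against 23.4% of all genes). It fell on the 2 h array for 9 (25.7%, against 19.1%) and on the 1 h array for 8 (22.9%, against 26.0%). The 3.5 h array held it for 6 (17.1%, against 18.5%) and the 6 h array for 2 (5.71%, against 12.9%).

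**Figure D2:**
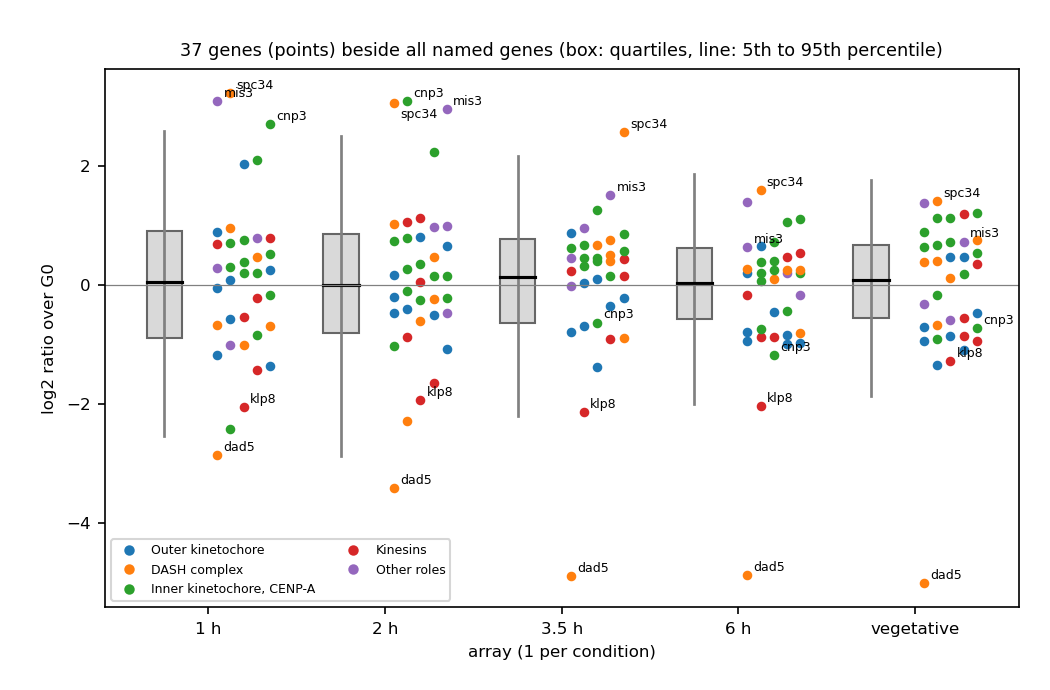
Log2 ratio over G0 (vertical axis) on each of the 5 arrays for the 37 genes (points, coloured by role) beside all named genes (grey box from the lower to the upper quartile with the median, line from the 5th to the 95th percentile). Most points lie inside the range of all genes, and dad5 lies below its 5th percentile on every array.

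In the outer kinetochore, 6 of the 8 genes were lower at 6 h than at 1 h, and mis12 and ndc80 were not. The share of all genes lower at 6 h than at 1 h was not computed, and none of the 8 passed the trend test described further on. From 1 h to vegetative cells the median of the 8 genes was 0.02, -0.30, -0.28, -0.82 and -0.78. The genes nuf2, spc24, spc7 and mis14 lay between -1.33 and -0.46 on the 6 h and vegetative arrays. At 6 h none of the 8 was 2-fold lower as deposited (14.9% of all genes). With arrays centred 2 were (15.5% of all genes), with arrays scaled 4 (17.9%) and with each block centred 1 (15.7%). In vegetative cells ndc80 and mis14 were 2-fold lower (14.6% of all genes). Under those settings 3, 4 and 2 genes were (16.3%, 17.6% and 16.9% of all genes).

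The gene ndc80, whose product is the microtubule-binding subunit that gives the Ndc80 complex its name, stood at -1.18, -1.07, -1.38, -0.97 and -1.09 from 1 h to vegetative cells. It was low on all 5 arrays to about the same extent, although its 1 h and 2 h values miss the 2-fold limit when scaled (-0.95 and -0.94), as does the 2 h value with each block centred (-0.98). Its direct partner nuf2 stood at 0.89, 0.66, 0.10, -0.46 and -0.46, so it was above G0 early and below it late. The partners thus differed by 2.07 at 1 h and by 0.51 at 6 h, with ndc80 the lower each time.

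The other pair of the Ndc80 complex, which links it to the Mis12 complex, also differed. The gene spc25 stood at 2.04, 0.81, 0.88, 0.65 and 0.47, high at 1 h and less so later. Its partner spc24 was at 0.09, -0.20, -0.21, -0.79 and -0.86. On every array spc25 was the higher of them, by at least 1.00.

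The Mis12 complex joins the inner to the outer kinetochore. Its gene mis12 stood at -1.36, -0.51, -0.34, 0.20 and 0.47, lowest at 1 h and above G0 only at 6 h and in vegetative cells. The gene mis14 went the other way, with 0.26, 0.18, -0.69, -0.94 and -1.33. The gene mis13 was between -0.84 and -0.47 throughout. The scaffold gene spc7, whose product receives checkpoint proteins, stood at -0.05, -0.40, 0.04, -0.99 and -0.94, with its low values on the last arrays.

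In array order the DASH medians were -0.68, -0.23, 0.51, 0.26 and 0.39, but these genes spread more widely than those of any other role, from -2.86 to 3.22 at 1 h and from -5.00 to 1.41 in vegetative cells. Both ends of the whole set at 1 h, 3.5 h, 6 h and in vegetative cells were DASH genes, dad5 and spc34. The small DASH subunit gene dad5 (SPCC417.02) stood at -2.86, -3.41, -4.89, -4.87 and -5.00. It was the lowest gene of the set on all 5 arrays and ranked 11 from the lowest of 4779 genes at 6 h and 13 of 4765 in vegetative cells. On the linear scale its G0 signal was 32.1 times that of vegetative cells. The gene spc34 (SPAC8C9.17C) stood at 3.22, 3.05, 2.58, 1.60 and 1.41, above G0 on every array and highest at 1 h.

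The other DASH genes were nearer to G0. The gene dam1, which codes for the subunit that contacts the Ndc80 complex in yeasts, stood at -1.002, -2.29, -0.89, -0.81 and -0.67, so its low point was at 2 h. With arrays scaled its 1 h value was -0.81. The genes dad1 and dad2 lay between -0.69 and -0.23 at 1 and 2 h and between 0.26 and 0.51 on the other arrays. The genes ask1 and duo1 were above G0 on all 5 arrays, between 0.10 and 1.03. The highest of these values, that of ask1 at 2 h, was 0.91 with arrays scaled. Subunits of this 1 complex thus took no common course.

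**Figure D3:**
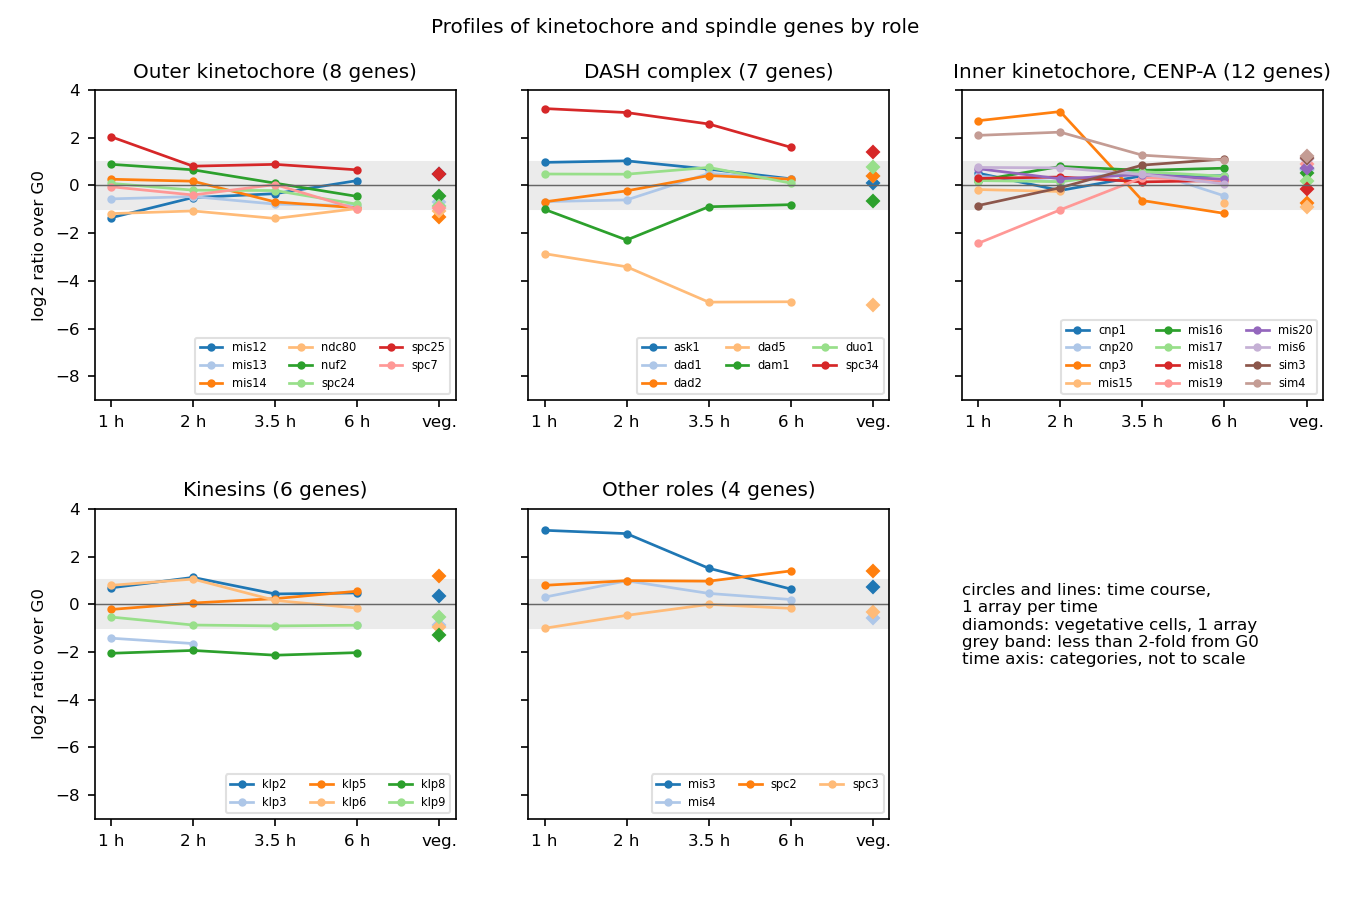
Log2 ratio over G0 (vertical axis) of each gene by role, with circles joined by lines for the 4 times after nitrogen replenishment and diamonds for vegetative cells, 1 array each; the grey band marks less than 2-fold from G0 and the horizontal axis shows categories. The DASH panel is the widest, from spc34 at 3.22 to dad5 at -5.00, and in the inner kinetochore panel cnp3 crosses from 3.10 at 2 h to -0.63 at 3.5 h.

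In the inner kinetochore, the CENP-A gene cnp1 stayed within 2-fold of G0 while a few partners stood far from it. Its values were 0.52, -0.21, 0.40, 0.41 and 0.68. The median over the 12 genes was 0.34, 0.22, 0.46, 0.23 and 0.66 in array order. The gene cnp3 (SPBC1861.01C), which codes for the CENP-C protein that binds CENP-A nucleosomes, stood at 2.71, 3.10, -0.63, -1.17 and -0.72. It was high on the 1 h and 2 h arrays and below G0 on the other 3, with no intermediate value. The gene cnp20, for the CENP-T protein, stood at 0.39, 0.15, 0.67, -0.44 and 0.65, within 2-fold of G0 on all arrays.

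Genes of the Sim4 complex, the constitutive network around CENP-A, also differed among themselves. The gene sim4 stood at 2.10, 2.23, 1.27, 1.06 and 1.22, at least 2-fold above G0 on all 5 arrays (0.96 in vegetative cells with each block centred). The gene mis6 was at 0.75, 0.74, 0.46, 0.06 and 1.13, past 2-fold in vegetative cells, though not with each block centred (0.78). The gene mis17 lay between 0.16 and 0.58, and mis15, with no value at 3.5 h, lay between -0.91 and -0.17.

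Among loading factors of CENP-A, some stayed near G0 and others were low at 1 h. The genes mis16 and mis18, for a histone-binding protein and its partner at centromeres, and mis20, for another protein of that complex, lay with mis17 between -0.16 and 0.80 on all arrays. By contrast mis19 (also called eic1), which codes for a protein bound to Mis18, stood at -2.43, -1.02 (-0.90 with arrays scaled), 0.33, 0.20 and 0.90. The gene sim3, for a chaperone that escorts CENP-A, stood at -0.84, -0.09, 0.85, 1.10 and 1.13 (the last 2 were 0.96 and 0.93 with each block centred). Both were lowest at 1 h and highest in vegetative cells.

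The 6 kinesin genes had medians of -0.38, -0.41, 0.16, -0.52 and -0.70 in array order. The genes klp5 and klp6 code for partner motors that together shorten microtubules and help chromosomes to align. The ratio of klp5 was -0.22, 0.05, 0.23, 0.55 and 1.19, highest in vegetative cells. The ratio of klp6 was 0.79, 1.05 (0.93 with arrays scaled), 0.16, -0.16 and -0.94, lowest in vegetative cells. Their difference (klp5 minus klp6) went from -1.01 at 1 h to 2.13 in vegetative cells, so the order of these partner genes turned around. Neither passed the trend test described further on (limma adjusted p = 0.27 for klp5 and 0.18 for klp6).

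Among the other motors, klp8 was at -2.06, -1.94, -2.14, -2.03 and -1.28, low on all 5 arrays and nearest to G0 in vegetative cells. The gene klp3, which codes for a motor of the conventional kinesin family, stood at -1.42, -1.65, -0.88 and -0.85 at 1 h, 2 h, 6 h and in vegetative cells and had no value at 3.5 h. The gene klp9, for a motor that elongates the anaphase spindle, was between -0.91 and -0.54. The gene klp2, for a minus-end-directed motor, was above G0 throughout, with its highest value of 1.12 at 2 h (0.99 scaled or with each block centred) and its lowest of 0.35 in vegetative cells.

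Genes that the name pattern takes in but that act elsewhere held some of the largest values. The ribosome assembly gene mis3 stood at 3.10, 2.96, 1.51, 0.64 and 0.73, the second highest of the 37 at 1 h. The signal peptidase gene spc2 was at 0.79, 0.99, 0.97, 1.40 and 1.37. By contrast spc3 of the same enzyme was at -1.01 (-0.81 with arrays scaled), -0.47, -0.01, -0.17 and -0.31. The cohesin loader gene mis4 stood at 0.30, 0.98, 0.45, 0.20 and -0.59. Without these 4 genes, 4 of 33 were 2-fold higher at 1 h (12.1%, against 23.4% of all genes). Lower at 1 h were 7 (21.2%, against 22.6%). In vegetative cells 5 of 33 were then higher (15.2%, against 15.8% of all genes) and 4 lower (12.1%, against 14.6%). The share of higher genes in vegetative cells was thus also below that of all genes.

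Steps between successive arrays were compared next, as differences of log2 ratios. If the G0 RNA was the same preparation on both arrays it cancels, which the labels do not state. From 1 to 2 h, mis19 was higher at the later time by 1.40 (4.67% of all genes were at least 2-fold higher). Lower by at least 2-fold (7.49% of all genes) were dam1 (-1.29) and spc25 (-1.24), though not with each block centred (-0.89 and -0.93); the split was then 2 higher and 0 lower (5.51% and 6.25% of all genes). The pooled SD of such a difference was 0.34 from the 3 repeated genes and 0.62 from the unnamed repeated positions.

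From 2 to 3.5 h, 3 genes were at least 2-fold higher (11.6% of all genes): dam1 (1.39), mis19 (1.35) and dad1 (1.11, or 0.98 with arrays centred). Another 3 were at least 2-fold lower (10.4%): cnp3 (-3.73), dad5 (-1.48) and mis3 (-1.45). With centred arrays the split was 2 higher and 6 lower (9.21% and 13.1% of all genes), and with centred blocks 3 and 5 (8.68% and 14.1%). The values of the 1 h and 2 h arrays carry 9 decimals and the others 3, so this step crosses 2 sets of columns written to different precision, and the set and the time cannot be told apart.

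From 3.5 to 6 h no gene was 2-fold higher (4.13% of all genes were), and cnp20 (-1.11) and spc7 (-1.03) were 2-fold lower (2.85%). Neither of them held in all settings, with cnp20 at -0.82 with each block centred and spc7 at -0.93 with arrays centred. From 6 h to vegetative growth cnp20 (1.08) and mis6 (1.06) were higher (3.03% of all genes) and no gene was 2-fold lower (2.54%). With each block centred these were 0.92 and 0.75. Over the 4 times, the median size of the difference from vegetative cells was 0.85, 0.78, 0.36 and 0.18, against 0.78, 0.70, 0.46 and 0.29 for all genes. At 6 h, 35 of 37 genes were within 2-fold of their vegetative ratio (94.6%, against 94.4% of all genes).

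A trend over the 4 times was tested with limma, as a slope of the log2 ratio per doubling of the hours, over 4730 genes. Of the 35 genes of the set with all 4 values, 5 passed at a Benjamini-Hochberg adjusted p under 0.05 (9.15% of all genes did): 2 rose (4.08% of all genes) and 3 fell (5.07%). The risers were mis19, with a slope of 1.09 ± 0.22 (SE, adjusted p = 0.038), and sim3, with 0.80 ± 0.17 (SE, adjusted p = 0.041). The 3 that fell were cnp3, by 1.76 ± 0.39 (SE) per doubling with a limma adjusted p of 0.041, mis3, by 1.01 ± 0.21 (SE) with 0.039, and dad5, by 0.88 ± 0.20 (SE) with 0.044. None of the 8 outer kinetochore genes or the 5 kinesin genes tested passed. Unadjusted, 11 of the 35 had a p under 0.05 (31.6% of all genes did). The 1 h and 2 h values carry 9 decimals and the 3.5 h and 6 h values 3. A slope over the 4 times thus runs across both sets of columns, and time and set cannot be fully told apart in it. The ratio of cnp3 was 2.71 and 3.10 in the first set and -0.63 and -1.17 in the second.

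All 5 trend calls were close to the threshold. They were lost with a slope on hours, with each block centred, and without the 3.5 h or the 6 h array. The range of adjusted p over 10 alternatives was 1.7e-05 to 0.17 for mis19, 0.0035 to 0.20 for sim3, 1.6e-10 to 0.19 for cnp3, 0.00034 to 0.29 for mis3 and 0.0016 to 0.18 for dad5. Without the 1 h array the calls of mis19, sim3 and dad5 were lost as well, and cnp3 passed in only 3 of the 10 alternatives. The slope kept its sign in each of them. Of these alternatives, medians of spots could not change the values of the genes, since each gene of the set had 1 spot.

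Other genes of chromosome segregation were set beside these from lists of 4 kinds. Of 12 measured subunits of the kinetochore with other names, fta3 (2.23) and mal2 (1.18) were 2-fold higher at 1 h (23.4% of all genes) and scm3, for the CENP-A chaperone, was lower (-1.32; 22.6%). In vegetative cells fta3 (1.06) was higher (15.8% of all genes) and scm3 (-1.30) lower (14.6%). With arrays or blocks centred fta3 was not 2-fold higher in vegetative cells, and with arrays scaled mal2 was not at 1 h. In the trend test fta4 fell by 0.77 ± 0.17 (SE) per doubling (limma adjusted p = 0.041), from 0.97 at 1 h to -0.93 at 6 h. None of the 11 tested rose (4.08% of all genes did), and fta4 was the only one that fell (5.07%). Its call was kept in 5 of 10 alternatives, with an adjusted p of 0.0054 to 0.26. Among the 5 were medians of spots, which gave the same slope and adjusted p as the fit above.

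Of 9 spindle checkpoint and chromosomal passenger genes, none was 2-fold from G0 at 1, 2 or 3.5 h, although mad3 and sgo2 were 2-fold lower at 3.5 h with arrays or blocks centred. At 6 h mad3 (-1.32), sgo2 (-1.12) and mad2 (-1.11) were 2-fold lower (14.9% of all genes), and the same 3 genes were so in vegetative cells (mad3 -1.19, sgo2 -1.61, mad2 -1.26; 14.6% of all genes). The products of mad2 and mad3 delay anaphase until chromosomes are attached, and sgo2 codes for a shugoshin that helps to place the passenger complex. The kinase gene bub1 stayed between 0.06 and 0.61. The trend test called none of these 9 (9.15% of all genes were called).

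Of spindle and spindle pole genes, at 1 h 2 of 25 lay at least 2-fold above G0 (23.4% of all genes) and 6 below it (22.6%; 4 with arrays scaled). In vegetative cells 2 of 26 were higher (15.8% of all genes) and 2 lower (14.6%; 3 with arrays centred or scaled). The mitotic kinesin gene cut7, for the motor that pushes spindle poles apart, was low on all arrays, between -1.95 and -1.39. The gene kms1, for a nuclear envelope protein near the spindle pole, stood at -2.94, -3.25, -1.75, -1.83 and -1.61. The gene cdc31, for a centrin of the spindle pole body, went from -0.82 at 1 h to 1.58 at 6 h and rose in the trend test by 0.94 ± 0.18 (SE) per doubling (limma adjusted p = 0.036). It was the only one of 25 tested that passed (9.15% of all genes did). Its call was kept in 7 of 10 alternatives, with a limma adjusted p of 0.00058 to 0.28. Among the 7 were medians of spots, which gave the same slope and adjusted p as the fit above.

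Of 10 cohesin and separase genes, 4 were 2-fold lower at 1 h (22.6% of all genes; 2 of the 10, psm1 and psm3, with arrays scaled): psm1 (-1.88), psm3 (-1.37) and psc3 (-1.06), which code for subunits of the cohesin ring and its partner, and the securin gene cut2 (-1.19). At 3.5 h psm3 stood at 0.31 and psc3 at 0.26, whereas psm1 was at -0.60 and cut2 at -1.045. The value of psm1 was -1.25 in vegetative cells, and that of cut2 was -1.34 at 6 h. The separase gene cut1 went from 0.97 at 1 h to -0.21 in vegetative cells, and the cohesin cleavage target rad21 stayed between -0.58 and 0.18. No gene of this list passed the trend test (9.15% of all genes did).

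**Figure D4:**
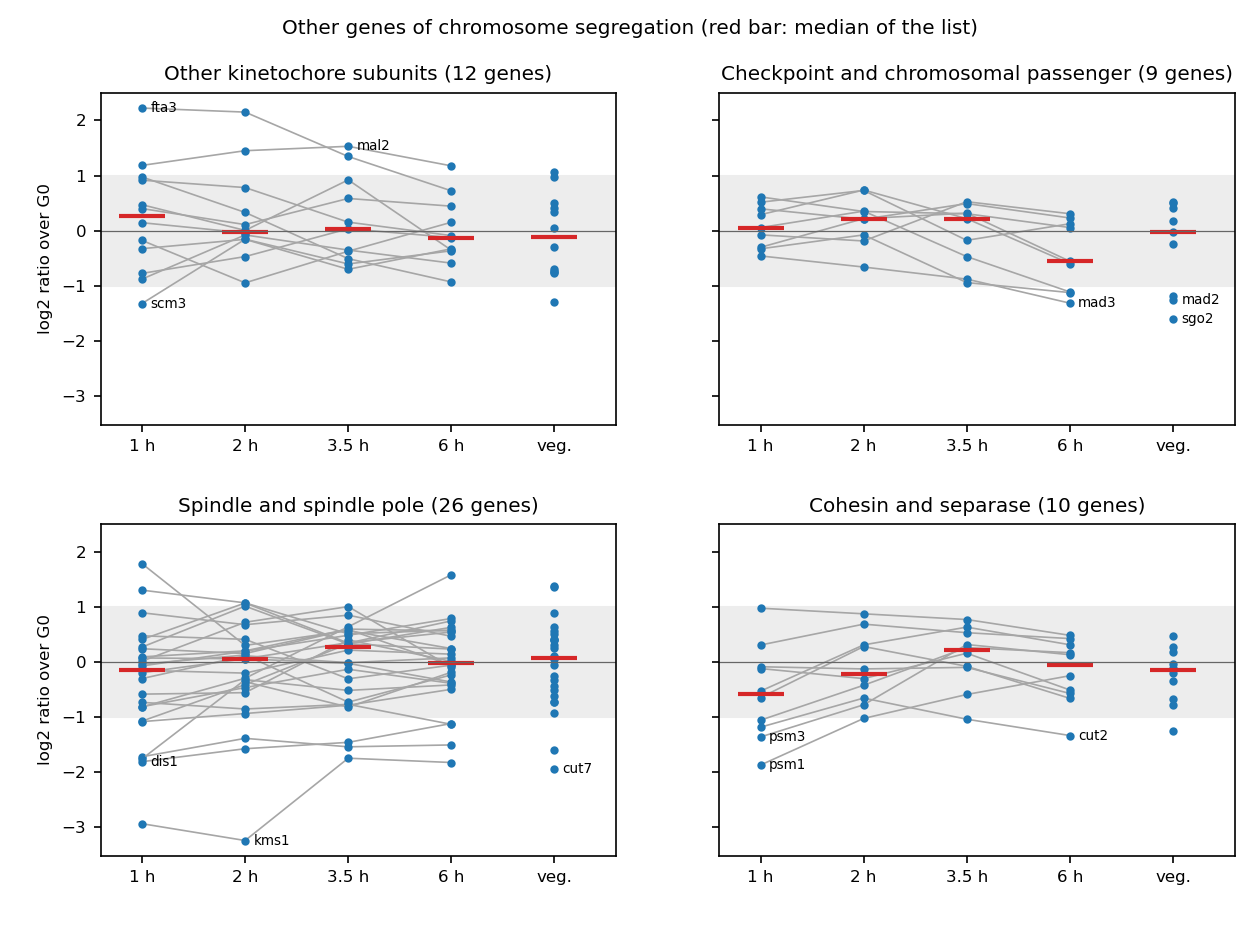
Log2 ratio over G0 (vertical axis) of other chromosome segregation genes in 4 lists on the 5 arrays (points, 1 gene each, joined over the 4 times), with the median of each list as a red bar and less than 2-fold from G0 in grey. The checkpoint and passenger genes lie within 2-fold of G0 up to 3.5 h in the deposited values, and 3 of the 9 are below it at 6 h and in vegetative cells.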

How the data were processed

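RNA of 5 conditions was compared with G0 RNA on 5 arrays of 2 colours. The labelled sample was 3 to 6 µg of polyadenylated RNA. The table deposited by the authors holds a log ratio for each spot, read as log2 of Cy5 (growing) over Cy3 (G0) from the dyes in the labels. They run from -8.36 to 7.16. The labels do not state the base, the scanning or any background correction or normalization, no spot intensities were used, and precision rests on the number of arrays. Array medians over genes ran from 0.00 to 0.14.

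Of 5188 rows, the last 4 (the authors' averages, or empty) were left out. Of 5184 spots in 16 blocks, 4865 carry 1 gene in the platform annotation, 22 several and 297 none. Names were checked in the RefSeq table of ASM294v3. No coordinates are given, since the sources name no build, and no sequences were used. Spots of a gene were averaged; 1 nda3 spot that the authors' average leaves out was dropped.

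A gene counted as different at a log2 value of 1 or -1, which is no test. For the trend, lmFit and eBayes of limma 3.58.1 (R 4.3.3) were used (2 residual degrees of freedom, all genes with 4 values, Benjamini-Hochberg, adjusted p under 0.05). Its spread is the departure from a line, not that between replicates. It was tested on simulated data. Other steps used Python 3.11.15, numpy 2.4.6, pandas 2.3.3 and matplotlib 3.10.9. Alternatives were centring, scaling, centring of blocks, medians of spots, other limits and log bases, a narrower membership, and trend fits with hours, a robust prior or 1 array left out. Every gene of the pattern could be named, and of other lists up to 4 per comparison. The genes and lists were chosen with earlier results of these data known.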

Additional observations from a re-analysis of the deposited data

Results flagged for a closer look

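The CENP-C gene cnp3 was the only one of the 35 genes with all values that was at least 2-fold above G0 on some arrays and at least 2-fold below it on another. It stood at 3.10 at 2 h and at -1.17 at 6 h, a difference of 4.27 on the log2 scale. Of all genes with all values, 2.91% went past 2-fold in both directions. With 1 array per time the difference itself was not tested. It crosses from the columns with 9 decimals to those with 3, and whether that has a part in it was not tested.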

How the results depend on the processing

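Counts of genes of the set past 2-fold, in both directions together, in array order from 1 h to vegetative cells were 13, 13, 6, 7 and 10, and 3, 6, 2 and 2 at the successive steps. They followed the limit: at 1.5-fold they were 23, 21, 18, 19 and 25, and 8, 13, 5 and 8. Read as natural logarithms they were 20, 19, 13, 17 and 21, and 6, 10, 4 and 6, and read as log10 28, 27, 28, 25 and 34, and 16, 23, 15 and 13. Shares of all genes rose as well. At 1 h, 23.4% of all genes were higher and 22.6% lower as log2. Read as natural logarithms these shares were 29.7% and 29.4%, and read as log10 41.5% and 39.5%. At 1.5-fold the lower genes were 32.4% of the set at 6 h (24.5% of all genes) and 35.1% in vegetative cells (24.4%). The higher genes were 35.1% at 2 h (31.1% of all genes) and 32.4% in vegetative cells (28.3%). The other shares at 1.5-fold on the 5 arrays were below those of all genes. Under either other base, of the 5 arrays, lower genes exceeded the share of all genes only at 6 h and in vegetative cells. Read as natural logarithms, higher genes exceeded it at 2 h (32.4%, against 28.3%) and in vegetative cells (27.0%, against 24.0%). At 1 h both shares were then 29.7%. Read as log10, they exceeded it at 2 h (40.5%, against 38.5%), at 3.5 h (54.3%, against 42.8%) and in vegetative cells (48.6%, against 40.2%). Scaled arrays gave 8 (2 h), 13 (6 h) and 16 (vegetative). The 8 at 2 h were 4 higher and 4 lower (20.4% and 18.8% of all genes). From 3.5 to 6 h centred arrays or centred blocks left 1, a lower gene (1.97% and 1.68% of all genes were lower). From 6 h to vegetative cells centred blocks left 0 (2.59% of all genes were higher and 2.75% lower). All of these counts stayed within 1.5 times without the 4 genes of other roles. Medians of spots could not move them, since each gene of the set had 1 spot. The limma trend called 5 genes of the set and 433 of all. With a slope on hours, without the 3.5 h array and with centred blocks it called 0 of the set (unadjusted p under 0.05 in 11, 8 and 11) and 0, 0 and 131 of all. Without the 6 h array it called 0 of the set (5 unadjusted) and 7 of all, and without the 1 h array 2 and 761. Centred arrays left 3 of the set and 294 of all, and scaled arrays 3 and 274, while without the 2 h array 7 and 1065 were called. The cause of these moves was not tested. Fits with 1 array left out have fewer residual degrees of freedom, and of all genes some called more and some fewer than 433. No paired analysis was possible because each condition has 1 array. The lack of spot intensities means that dim spots could not be set apart.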

Other observations

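Values of genes next to some members in the RefSeq gene table differed from case to case. On one side of dad5 lies gaf1, which stood at 0.99, 0.74, -0.28, -0.57 and -0.77 in array order, below G0 on the last 3 arrays, as dad5 was on all 5. On its other side SPCC417.03 lay between -0.02 and 0.57, and the gene after that, cfh2, went from 0.56 at 1 h to -2.90 at 3.5 h and -1.89 in vegetative cells. The gene abp2, next to cnp3, lay between 0.45 and 1.10 on all 5 arrays. Next to sim4, which was at least 2-fold above G0 on all 5 arrays, rpl1001 was as well, at 1.80, 1.79, 1.77, 1.502 and 1.41. On the other side of sim4, lcb1 was not, at -0.55, -0.11, 0.12, 0.75 and 0.69. Next to mis3, btb2 stood at 1.42, 1.45, 1.20, 0.72 and 0.22, and mtg1 on the other side at 0.71, 1.06, 0.64, 0.19 and -0.99. These genes were chosen after their values were seen.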
